A study of Mus musculus with 6 samples.

Results

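The Hox genes were examined in mouse mammary tumors, in sorted cancer-associated fibroblasts (CAFs). Members were the rows of the deposited gene count table whose symbol names a protein-coding gene of the Hoxa, Hoxb, Hoxc or Hoxd cluster, which gave 39 of 27179 genes. The tumors were from raGFP-Wnt1 mice, which carry a *Wnt1* transgene under the MMTV promoter, active in mammary epithelium, and a GFP reporter of *Pdgfra* expression, so that the sorted cells are those in which *Pdgfra* was or had recently been active. GFP-positive CAFs of each of 3 tumors were sorted by surface CD34 into a CD34- and a CD34+ fraction, which gave 6 libraries of bulk RNA-seq (n = 3 per group). Both groups thus share the transgene and the reporter, and the 2 fractions of a tumor are paired. The labels give neither the age of the mice nor the gland that each tumor arose in, nor whether the 3 tumors were from 3 mice. *Cd34* itself lay between 41.9 and 102 CPM (counts scaled by the library total) in CD34- libraries and between 562 and 1604 CPM in CD34+ libraries.

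Hox genes encode homeodomain transcription factors that assign position along the head to tail axis and along the limbs. Within each cluster the genes lie in the order of the body regions they pattern, from anterior genes with low paralog numbers at one end to posterior genes with high paralog numbers at the other. Fibroblasts of adult tissues are known to hold on to a Hox pattern that reflects the site they came from, and Hox9 genes and *Hoxc8* are known from mouse mutants to act in mammary development. Paralog groups 1 to 3 are called anterior here, 4 to 8 central and 9 to 13 posterior.

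The clusters comprised 11 genes on chromosome 6 (Hoxa), 10 on chromosome 11 (Hoxb), 9 on chromosome 15 (Hoxc) and 9 on chromosome 2 (Hoxd). The RefSeq promoter table for GRCm38.p6 held 22 of the 39 genes. The 200 bases before an annotated start are printed, to show what the start regions of genes with different patterns in these tumors look like. *Hoxa10*, whose level separated the tumors, is given at an internal start (chr6:52234940-52235139) and at the start of the longest transcript (chr6:52240855-52241054), both on the minus strand. Its neighbour *Hoxa11* is given at chr6:52245811-52246010 (minus strand). *Hoxb8*, which had no count in tumor 1, is given at an internal start (chr11:96281705-96281904, plus strand), inside the gene span of 96279401 to 96285325. *Hoxd8*, which was expressed in every library, is given at chr2:74704415-74704614 (plus strand). Capitals mark matches on either strand to TATAAA or to TTTATNG, letters that posterior HOX proteins are known to bind.
Hoxa10, internal start: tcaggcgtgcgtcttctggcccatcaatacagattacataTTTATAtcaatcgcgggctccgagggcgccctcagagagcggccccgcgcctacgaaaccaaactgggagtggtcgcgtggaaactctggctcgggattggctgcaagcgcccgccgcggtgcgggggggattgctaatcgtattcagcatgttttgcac
Hoxa10, first start: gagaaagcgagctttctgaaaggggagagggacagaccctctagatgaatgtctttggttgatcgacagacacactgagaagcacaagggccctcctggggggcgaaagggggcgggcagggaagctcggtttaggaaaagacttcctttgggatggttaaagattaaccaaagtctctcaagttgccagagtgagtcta
Hoxa11: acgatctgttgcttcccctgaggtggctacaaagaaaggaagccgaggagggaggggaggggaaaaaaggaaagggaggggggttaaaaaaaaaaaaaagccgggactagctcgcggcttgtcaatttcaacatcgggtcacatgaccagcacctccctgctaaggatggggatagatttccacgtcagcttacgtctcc
Hoxb8: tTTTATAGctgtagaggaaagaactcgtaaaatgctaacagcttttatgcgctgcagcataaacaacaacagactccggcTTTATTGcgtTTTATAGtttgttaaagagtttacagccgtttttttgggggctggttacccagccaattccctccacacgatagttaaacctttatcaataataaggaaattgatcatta
Hoxd8: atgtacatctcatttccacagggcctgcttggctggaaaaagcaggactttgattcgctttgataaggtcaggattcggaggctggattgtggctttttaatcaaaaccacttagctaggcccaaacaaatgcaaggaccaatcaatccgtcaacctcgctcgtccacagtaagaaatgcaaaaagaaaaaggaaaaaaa

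TATAAA was present in 4 of the 22 genes (*Hoxa10*, *Hoxb8*, *Hoxd4* and *Hoxd13*) and in 9.96% of all 32851 promoters of the table. TTTATNG was found in 2 genes, *Hoxb8* and *Hoxd4*, against 7.73% of promoters, and in *Hoxb8*, 2 of its 3 matches overlapped TATAAA. TGATTNAT, a PBX-HOX site, was found in *Hoxa2* and *Hoxd11* against 2.23%, and TGACAG, a MEIS and PKNOX site, in *Hoxa2* and *Hoxa3* against 12.9%. The windows of Hox genes held a median of 8.5 CpG dinucleotides against 5 over all promoters. These matches describe the letters of the windows and were not related to the levels.

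Libraries held between 16238059 and 86609267 counts, of which between 1636 and 11382 fell in Hox genes. CD34- library 3 had counts for 14314 genes, the fewest, against 16253 to 19220 in the other libraries, and its Hox zeros are named where they touch a value. Counts were found in all 6 libraries for 19 of the 39 Hox genes, and in no library for *Hoxb1*, *Hoxb13* and *Hoxd12*. A count of 0 allows up to 3 counts, or between 0.0346 and 0.185 CPM depending on the library, as far as counting error goes. This floor uses library totals without TMM scaling. Levels are given as CPM per kilobase of the deposited gene length (RPKM), with TMM-scaled library totals (trimmed mean of M-values). The kit did not mark strand, so that reads of overlapping genes cannot be told apart. This touches 10 members that overlap another Hox gene (*Hoxa3* with *Hoxa4*, *Hoxa5* and *Hoxa6*, *Hoxb3* with *Hoxb4*, *Hoxd3* with *Hoxd4*, and *Hoxd10* with *Hoxd11*) and *Hoxa11*, which overlaps the antisense gene *Hoxa11os*.

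The Hoxc cluster was the most abundant. Its summed level was 44.8 ± 19.2 RPKM in CD34- and 35.7 ± 6.22 RPKM in CD34+ CAFs (SD, n = 3), whereas Hoxa reached 8.34 ± 4.26 and 8.43 ± 4.60 RPKM, Hoxb 9.38 ± 7.52 and 8.62 ± 6.78 RPKM, and Hoxd 10.4 ± 3.45 and 10.0 ± 1.89 RPKM. In each cluster the difference between the fractions was smaller than the SD over the CD34- libraries. By mean RPKM over the 6 libraries the order of genes was led by *Hoxc8* (11.4), *Hoxc10* (9.85), *Hoxd8* (8.57) and *Hoxc6* (8.04), followed by *Hoxc9* (4.21), *Hoxc11* (3.34), *Hoxb2* (3.19) and *Hoxa10* (2.51). Neighbours in this order were not separated beyond their spread over libraries, since *Hoxc8* ranged from 0.871 to 24.0 RPKM and *Hoxc10* from 0.0694 to 21.8 RPKM. *Hoxc8* stood at percentile 77.1 of all genes with a count.

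**Figure D1:**
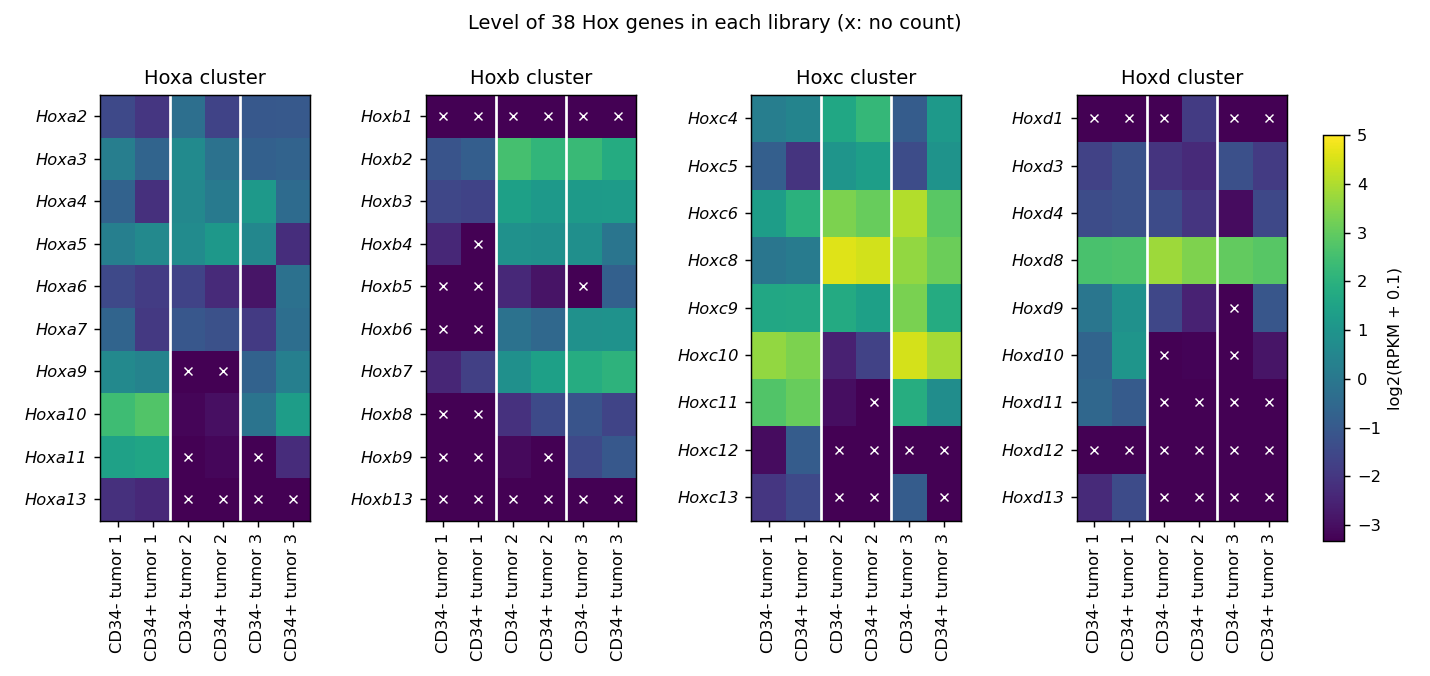
Level of 38 Hox genes (rows, by cluster, anterior genes at the top) in each of the 6 libraries (columns, 2 fractions per tumor), as log2(RPKM + 0.1), with a cross where no read was counted. The 2 columns of a tumor resemble each other, Hoxb is dark in tumor 1, the lower rows of Hoxa and Hoxd are brightest there, and *Hoxc10* and *Hoxc11* are bright in tumors 1 and 3.

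Whether CD34 status separates Hox expression was examined first. No Hox gene passed the test between CD34- and CD34+ CAFs. Of the 39 genes, 27 passed the low-count filter and 0 were called by limma-voom with Benjamini-Hochberg adjustment over 14855 genes, where 0.121% of all genes were called. None of the 27 had an unadjusted p under 0.05, against 14.3% of all genes. By edgeR and DESeq2, 0 were also called, where 0.0606% and 4.54% of all genes were. With the tumor as a block, which raised the calls to 8.57% of all genes, 0 of the 27 Hox genes were called. An unadjusted p under 0.05 was then found for 0 of them, against 23.3% of all genes. In edgeR and DESeq2 with the block the calls were again 0, against 3.87% and 11.6% of all genes. In each, 1 Hox gene had an unadjusted p under 0.05, against 19.5% and 22.5% of all genes. The median log2 fold change (CD34- minus CD34+) of the 27 genes was -0.08 without and 0.16 with the block, against -0.03 and -0.01 over all genes tested.

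The most abundant members show how narrow or wide this comparison was. *Hoxd8* was at 6.02, 13.8 and 7.96 RPKM in CD34- libraries 1, 2 and 3 and at 6.34, 10.3 and 7.03 RPKM in the CD34+ libraries of the same tumors. These ranges overlapped, and with the block its log2 fold change was 0.28 ± 0.23 (SE), with a 95% interval from -0.23 to 0.79 and an adjusted p of 0.525 in limma-voom. *Hoxc8*, which acts in thoracic patterning, had an interval from -0.14 to 0.69, and *Hoxc10*, a gene of lumbar and hindlimb levels, one from -0.07 to 0.98. Within single tumors the difference of *Hoxc10* was 0.29, -1.53 and 0.59 on the log2 scale, with 6 and 35 counts in tumor 2, so its sign was not the same in every tumor. The precision was lower for genes with few counts, as in *Hoxc13* (-2.41 to 5.69), which had no count in tumor 2 or in CD34+ library 3.

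The smallest adjusted p with the block was that of *Hoxc9*. It was at 3.04, 3.28 and 9.85 RPKM in the CD34- and at 3.17, 2.54 and 3.36 RPKM in the CD34+ libraries of tumors 1, 2 and 3, so that CD34- library 3 stood above the others. The log2 fold change was 0.79 ± 0.37 (SE, limma-voom with the block, adjusted p = 0.244). *Hoxa5*, a gene of lung and airway development and one of the 3 highest of its cluster, was at 1.12, 1.51 and 1.35 RPKM in CD34- and 1.42, 2.05 and 0.113 RPKM in CD34+ libraries. CD34+ library 3 was low, and the fold change was -0.07 ± 0.60 with the block (adjusted p = 0.959). *Hoxa4* was at 0.512, 1.39 and 2.16 RPKM in CD34- and 0.121, 0.942 and 0.646 RPKM in CD34+ libraries. It was higher in the CD34- fraction of 3 of 3 tumors, by 1.00 ± 0.64 on the log2 scale, but did not pass the test (adjusted p = 0.407 in limma-voom with the block).

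**Figure D2:**
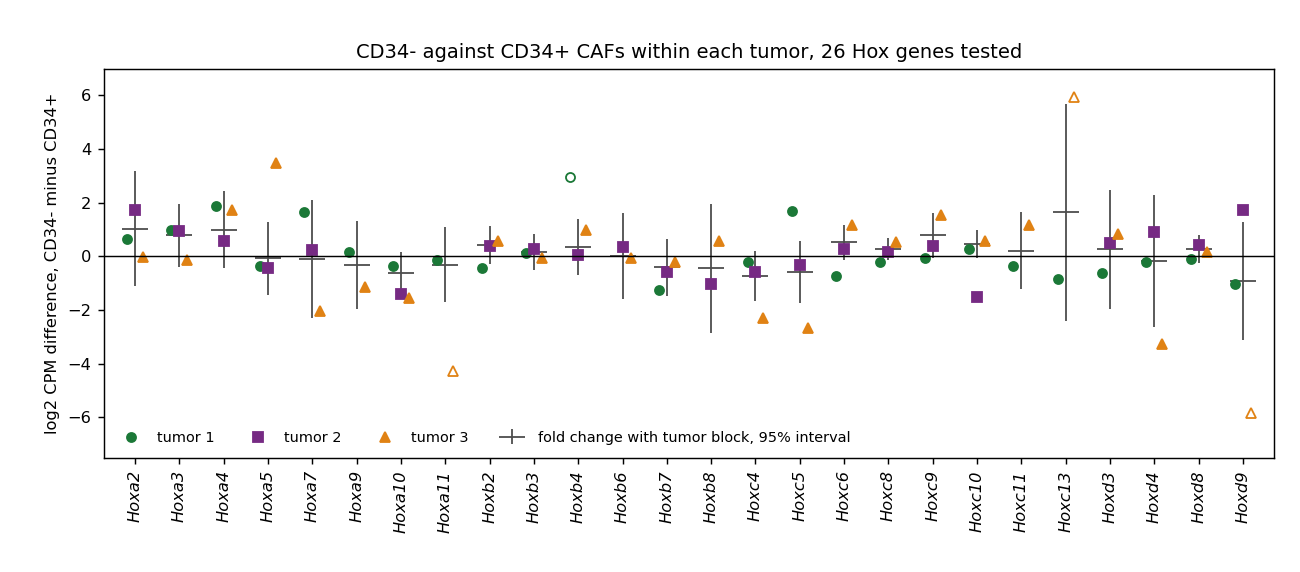
Difference in log2 CPM between the CD34- and the CD34+ library of each tumor (points) for 26 of the Hox genes tested, with the fold change fitted with the tumor block and its 95% interval (cross and line). Open points have no count in 1 fraction, and pairs with at most 3 counts in both fractions are left out. Points lie on both sides of 0 for most genes, and the widest are from tumor 3.

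The tumors differed from each other in which Hox genes they expressed. Between tumors, 30 Hox genes were tested and 6 were called by a limma-voom F-test of the tumor with CD34 status as a term, or 20% of those tested against a background of 3.47% of 15496 genes. Each tumor has only its 2 fractions, so this test sets tumor differences against the scatter within tumors, and no tumor was replicated. The 6 genes were *Hoxa10*, *Hoxb2*, *Hoxb3*, *Hoxc6*, *Hoxc8* and *Hoxc10*. At an unadjusted p under 0.05 there were 20 of the 30, against 21.0% of all genes. By edgeR 5 were called, against 1.26% of all genes, and by DESeq2 13, against 10.1%. Some of the 30, such as *Hoxb9*, *Hoxd10* and *Hoxd11*, passed the filter only through the tumor in which they were high, so the count was repeated over the 27 genes that passed the filter of the CD34 comparison, in which 6 were called against 4.03% of genes. Of these, *Hoxa9* took the place of *Hoxb3*. Without a term for CD34 status limma-voom called 0 of the 15496 genes, with 18 Hox genes and 1487 of all genes at an unadjusted p under 0.05. Without CD34- library 3 the calls among Hox genes were 24 of 34, against 18.1% of all genes, and without CD34+ library 3 they were 23 of 32, against 28.2%. Without CD34- library 1 they were 3 of 32, against 3.90%. Each of these fits leaves 1 tumor with a single library, whose spread is then assumed to be that of the others.

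Tumor 1 expressed posterior genes of 3 clusters. *Hoxa10*, which patterns the reproductive tract and the proximal limb, was at 5.19 RPKM in the CD34- and 6.64 RPKM in the CD34+ library of tumor 1, at 0.00704 and 0.0261 RPKM in tumor 2 and at 0.814 and 2.38 RPKM in tumor 3. The ranges of the 3 tumors did not overlap, and on the log2 scale tumor 2 differed from tumor 1 by -8.31 ± 1.48 and tumor 3 from tumor 1 by -1.99 ± 0.43 (SE, adjusted p = 0.0316 in the limma-voom F-test). *Hoxa11*, next to it in the cluster, was at 2.61 and 2.84 RPKM in tumor 1, at 0 and 0.0104 RPKM in tumor 2 and at 0 and 0.110 RPKM in tumor 3. In counts this was 432 reads in tumor 1 against 2 in tumor 2 and 7 in tumor 3, a ratio of 390 (95% exact interval 107 to 3231, counting error only) and of 55.2 (26.6 to 138). *Hoxa11* did not pass the adjustment (adjusted p = 0.0548).

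*Hoxa9*, one of the Hox9 genes that act in the mammary gland, had 224 counts in tumor 1, 114 in tumor 3 and 0 in both libraries of tumor 2. It was at least 135-fold higher in tumor 1 than in tumor 2, taking 3 counts over both libraries as the floor, and its adjusted p was 0.0650. *Hoxa13* had 11 counts in all, each of them in tumor 1.

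*Hoxc10* was high in 2 of the tumors and had 41 counts in tumor 2. Its level was 12.4 and 10.1 RPKM in the CD34- and CD34+ libraries of tumor 1, 0.0694 and 0.214 RPKM in tumor 2 and 21.8 and 14.5 RPKM in tumor 3. Tumor 2 differed from tumor 1 by -6.17 ± 0.95 and tumor 3 was higher than tumor 2 by 6.87 ± 0.86 on the log2 scale (SE, adjusted p = 0.00540 in the limma-voom F-test), with no overlap between tumor 2 and the other libraries. It ranked first among the 39 genes by mean RPKM in tumors 1 and 3 and at place 22 in tumor 2. *Hoxc11* was likewise lowest in tumor 2, at 0.0242 and 0 RPKM. It was at 6.52 and 8.32 RPKM in tumor 1 and 3.58 and 1.58 RPKM in tumor 3, without passing the adjustment (adjusted p = 0.0783). *Hoxc12* had 7 counts, all in tumor 1, and *Hoxc13* had counts in tumor 1 and in CD34- library 3 alone.

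The most posterior Hoxd genes were found almost only in tumor 1. *Hoxd10*, the third in level of its cluster, was at 0.547 RPKM in the CD34- and 1.94 RPKM in the CD34+ library of tumor 1, at 0 and 0.00654 RPKM in tumor 2 and at 0 and 0.0394 RPKM in tumor 3 (adjusted p = 0.0871). *Hoxd11* had 40 counts and *Hoxd13*, a gene of the digits and the urogenital end of the trunk, had 25 counts in tumor 1, and both had 0 in the other libraries. *Hoxd9* was at 0.864 and 1.77 RPKM in tumor 1, 0.242 and 0.0724 RPKM in tumor 2 and 0 and 0.369 RPKM in tumor 3 (adjusted p = 0.158). *Hoxd8* differed far less, with tumor 2 above tumor 1 by 1.03 ± 0.29 on the log2 scale (adjusted p = 0.143).

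Tumor 2 was led by *Hoxc8*. Its level was 24.0 and 21.3 RPKM in the CD34- and CD34+ libraries of tumor 2, 0.871 and 0.992 RPKM in tumor 1 and 12.5 and 8.62 RPKM in tumor 3. The 3 tumors did not overlap, and tumor 2 exceeded tumor 1 by 4.73 ± 0.48 and tumor 3 exceeded tumor 1 by 3.62 ± 0.49 on the log2 scale (SE, adjusted p = 0.00436 in the limma-voom F-test). *Hoxc6*, the neighbouring central gene, was at 2.36 and 3.89 RPKM in tumor 1, 10.1 and 8.34 RPKM in tumor 2 and 16.3 and 7.27 RPKM in tumor 3. It was higher in tumors 2 and 3 than in tumor 1, by 1.99 ± 0.45 and 2.27 ± 0.46 on the log2 scale (adjusted p = 0.0449), whereas tumors 2 and 3 overlapped. The call of *Hoxc6* was lost in edgeR (adjusted p = 0.18), without a low-count filter (0.080) and without CD34- library 1, where the difference between tumors 2 and 1 was 0.95. Without that library the adjusted p of *Hoxc8* was 0.18.

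The Hoxb cluster was nearly silent in tumor 1. *Hoxb2*, which patterns the hindbrain in the embryo, was at 0.349 and 0.455 RPKM in the CD34- and CD34+ libraries of tumor 1, at 5.70 and 4.33 RPKM in tumor 2 and at 4.94 and 3.35 RPKM in tumor 3. Tumor 1 lay below the other libraries without overlap, by 3.79 ± 0.78 against tumor 2 and 3.51 ± 0.81 against tumor 3 on the log2 scale (SE, adjusted p = 0.0476 in the limma-voom F-test), and tumors 2 and 3 overlapped. *Hoxb3* behaved likewise, at 0.244 and 0.216 RPKM in tumor 1, 2.56 and 2.12 RPKM in tumor 2 and 2.2 and 2.27 RPKM in tumor 3 (adjusted p = 0.0495). Both calls lay close to the threshold and were lost in 7 of 13 alternatives each. With a minimum count of 30 the adjusted p was 0.0607 for *Hoxb2* and 0.0621 for *Hoxb3*, without a low-count filter it was 0.0636 and 0.0677, and edgeR gave 0.0570 and 0.0419. It was 0.98 and 0.93 without CD34- library 1, 0.0606 and 0.0821 without CD34- library 2, and 0.283 and 0.304 without CD34+ library 1.

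*Hoxb7* was at 0.0841 and 0.195 RPKM in tumor 1, 1.71 and 2.56 RPKM in tumor 2 and 3.49 and 4.03 RPKM in tumor 3, with an adjusted p of 0.104. *Hoxb5*, *Hoxb6*, *Hoxb8* and *Hoxb9* had no count in either library of tumor 1. Relative to a floor of 3 counts over both libraries, *Hoxb6* was at least 21.0-fold higher in tumor 2 and at least 56.6-fold higher in tumor 3 than in tumor 1. *Hoxb9*, the posterior member of the cluster, had 55 counts in tumor 3, 2 in tumor 2 and 0 in tumor 1.

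**Figure D3:**
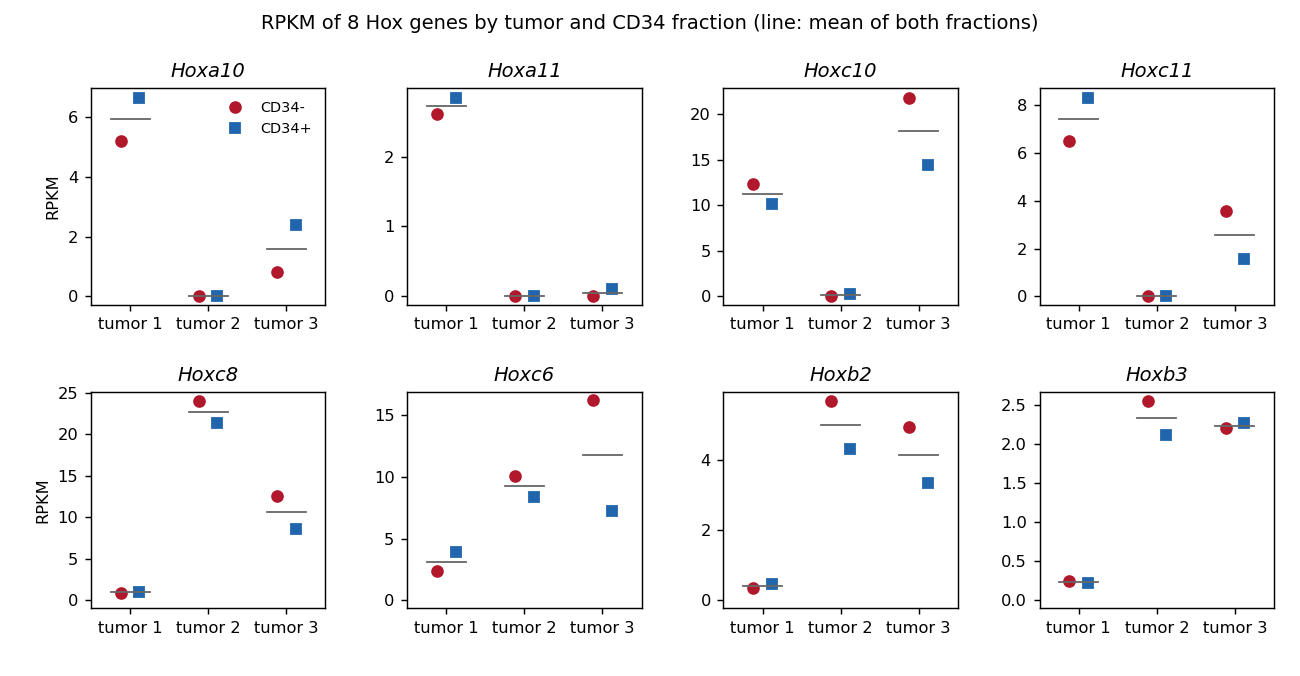
RPKM of 8 Hox genes in the CD34- (circles) and CD34+ (squares) library of each tumor, with a line at the mean of both. *Hoxa10* and *Hoxa11* are highest in tumor 1, *Hoxc10* and *Hoxc11* are near 0 in tumor 2 only, and *Hoxc8*, *Hoxc6*, *Hoxb2* and *Hoxb3* are lowest in tumor 1.

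The genes were then ordered by their place in the clusters. Of the 16 posterior genes, 13 had counts in both fractions of tumor 1, 4 in tumor 2 and 6 in tumor 3, whereas of the 15 central genes 11, 15 and 14 did. CD34- library 3 had no count of *Hoxa11*, *Hoxd9*, *Hoxd10* and the central gene *Hoxb5*. CD34+ library 3 had 7, 22, 2 and 26 counts of them. *Hoxc13* had 39 counts in CD34- and 0 in CD34+ library 3. Posterior genes made up 67.7% and 69.0% of the summed Hox RPKM in the CD34- and CD34+ libraries of tumor 1, 4.83% and 4.31% in tumor 2 and 39.6% and 35.3% in tumor 3. The 2 fractions of a tumor thus lay close together, and the tumors did not overlap. The most posterior gene with at least 10 counts in both fractions was *Hoxa11*, *Hoxb3*, *Hoxc13* and *Hoxd13* in tumor 1, *Hoxa7*, *Hoxb8*, *Hoxc9* and *Hoxd9* in tumor 2, and *Hoxa10*, *Hoxb9*, *Hoxc11* and *Hoxd8* in tumor 3. With a minimum of 20 counts these were *Hoxa11*, no Hoxb gene, *Hoxc11* and *Hoxd10* in tumor 1, and *Hoxb7* and *Hoxd8* took the place of *Hoxb8* and *Hoxd9* in tumor 2. With a minimum of 3 counts *Hoxb7* replaced *Hoxb3* in tumor 1 and *Hoxc10* replaced *Hoxc9* in tumor 2. These minima are raw counts that were not scaled for depth, so the same count stands for a higher CPM in a smaller library. At the minimum of 10, *Hoxa7* failed in tumor 1 at 1.05 and 0.309 CPM in the CD34- and CD34+ libraries. *Hoxd9* passed in tumor 2 at 0.509 and 0.152 CPM. The order of the tumors was not the same in every cluster. At 3 and at 10 counts tumor 1 reached farthest in Hoxa, Hoxc and Hoxd and least far in Hoxb, and at 20 counts tumors 1 and 3 both ended at *Hoxc11* in Hoxc. In tumor 3, *Hoxd9* fell short at each minimum only through CD34- library 3, and so did *Hoxa11* at 3 counts. *Hoxc13* fell short there only through CD34+ library 3.

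**Figure D4:**
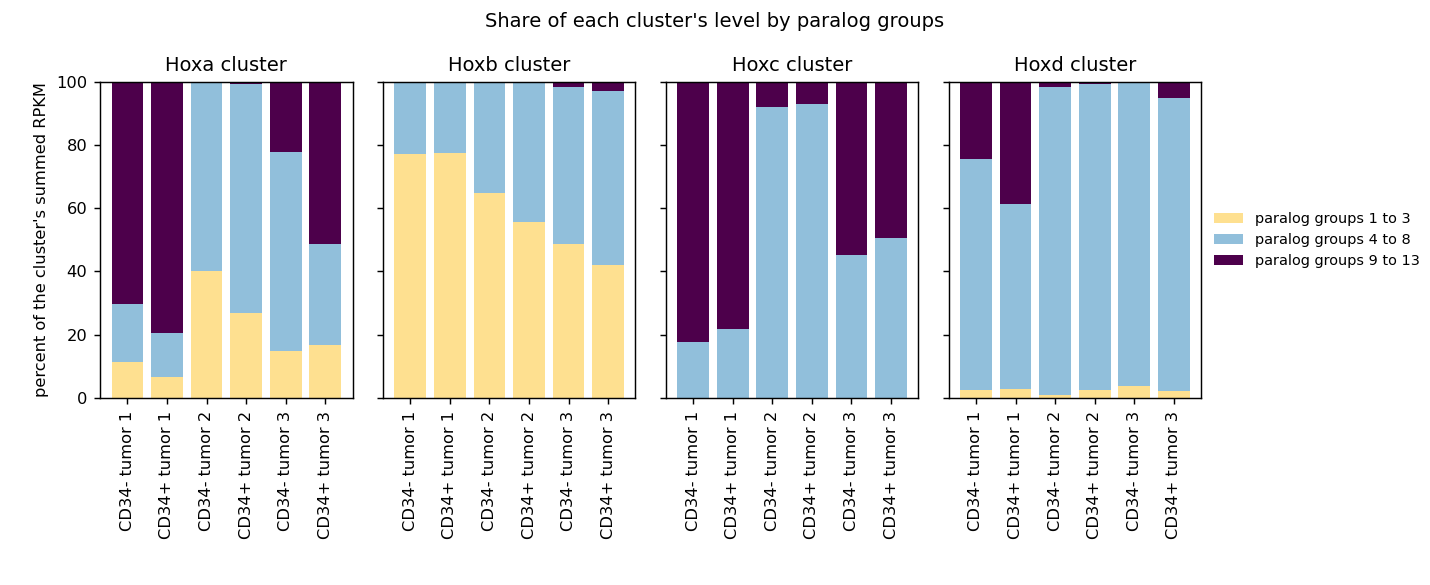
Percent of each cluster's summed RPKM held by anterior (paralog groups 1 to 3), central (4 to 8) and posterior (9 to 13) genes in each library. In Hoxc, which has no anterior gene, the posterior share is 82.2% and 78.1% in the CD34- and CD34+ libraries of tumor 1, 7.96% and 6.99% in tumor 2 and 54.8% and 49.5% in tumor 3.

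Most of the spread of Hox genes was between tumors. When the sum of squares of the log2 CPM of each gene over the 6 libraries was divided, the tumor held a median of 80.4% over the 27 Hox genes tested and 45.5% over all 14855 genes, and CD34 status held 4.20% against 20.6%. The tumor share was above 90% in 10 of the 27 genes (37.0%) and in 6.34% of all genes. It was largest for *Hoxb3* (99.7%), *Hoxc8* (99.2%) and *Hoxa9* (98.8%), and *Hoxa7* stood at the other end with 1.46%. The median was 92.3% for posterior, 80.4% for central and 62.7% for anterior genes. Genes without a count in both fractions of 1 tumor enter this division at the value of the pseudocount.

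**Figure D5:**
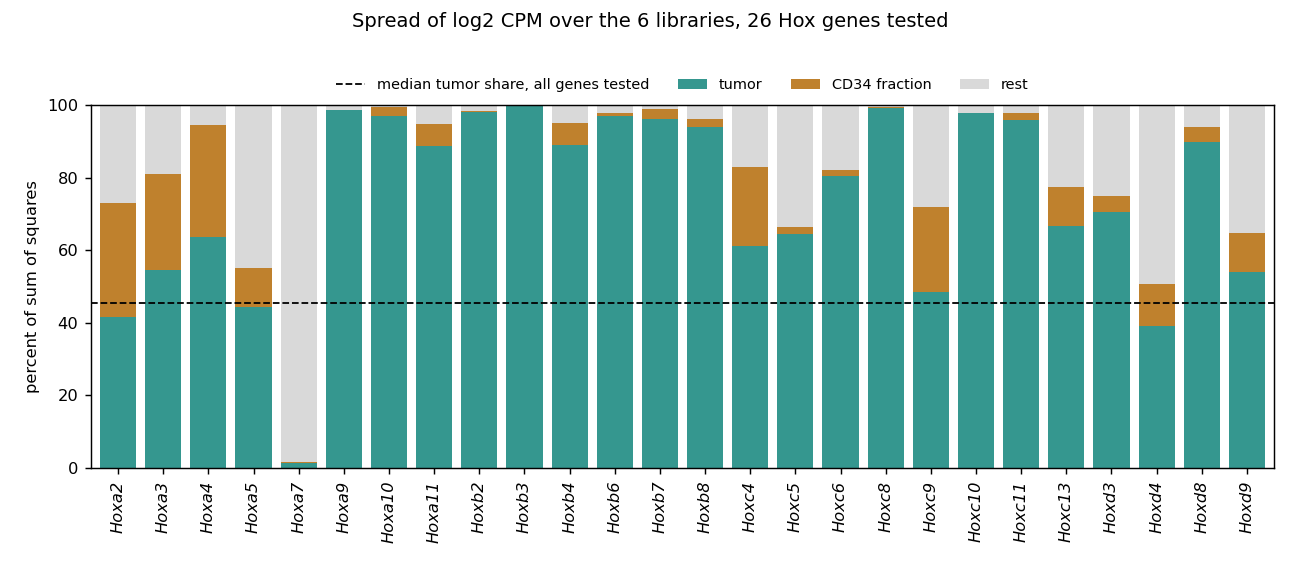
Percent of the sum of squares of log2 CPM over the 6 libraries held by the tumor, the CD34 fraction and the rest, for 26 of the Hox genes tested, with the median tumor share of all genes (45.5%) as a dashed line. The Hoxb genes tested and *Hoxa9* to *Hoxa11*, *Hoxc8*, *Hoxc10*, *Hoxc11* and *Hoxd8* are held mostly by the tumor, and *Hoxa7* is not.

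Over the 36 Hox genes with a count, the log2 profiles of the 2 fractions of a tumor correlated at a Pearson r between 0.842 and 0.973. Libraries of the same fraction from different tumors correlated between 0.134 and 0.691, and the remaining pairs between 0.129 and 0.703. Tumors 1 and 2 were the least alike, at 0.223 between the CD34- and 0.134 between the CD34+ libraries. The points of these correlations are genes, which share a library and, within a cluster, a locus, so they serve as a description.

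Noncoding genes of the clusters were examined beside their Hox neighbours, and 2 of 4 passed the low-count filter of the tumor comparison. *Hotair*, a long noncoding RNA gene between *Hoxc11* and *Hoxc12*, had 97 and 52 counts in the CD34- and CD34+ libraries of tumor 1 and 0 in the other 4 libraries (adjusted p = 0.0597 between tumors in limma-voom). *Hoxa11os* was at 8.15 and 13.7 CPM in tumor 1 and at or under 0.0221 CPM elsewhere. It was the 1 of the 2 called between tumors (adjusted p = 0.0264 in limma-voom), where 3.47% of all genes were. Both genes failed the filter of the CD34 comparison and passed that of the tumors only through tumor 1, where they were high. The call thus adds nothing to the counts themselves. As *Hoxa11* and *Hoxa11os* overlap on opposite strands, part of either signal may have been counted from the other. *Hoxaas3* and *Hoxd3os1* were at or under 0.353 CPM in every library.

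Genes that flank the clusters were examined as well. Of 12 neighbours, 8 were tested and limma-voom called 0 between the fractions, with or without the block. Between tumors limma-voom called 0 and DESeq2 called 1, where 3.47% and 10.1% of all genes were called. Between the fractions 1 had an unadjusted p under 0.05 without the block and 2 with it, against 14.3% and 23.3% of all genes. *Skap2*, beside Hoxa, was at 32.4 CPM or above and *Mtx2*, beside Hoxd, between 22.5 and 35.3 CPM. *Evx1* and *Evx2*, homeobox genes at the posterior ends of Hoxa and Hoxd, had no count.

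HOX proteins bind DNA with the TALE cofactors PBX, MEIS and PKNOX. Of the 9 cofactor genes, limma-voom called 0 between the fractions, with or without the block. At an unadjusted p under 0.05 there were 0 without it and 2 with it, against 14.3% and 23.3% of all genes. Between tumors limma-voom called 0 and DESeq2 called 2, against 3.47% and 10.1% of all genes. *Meis1* lay between 13.2 and 50.5 CPM with its 2 highest values in tumor 1 (adjusted p = 0.0600 between tumors). *Meis2* lay between 28.8 and 43.3 CPM. *Pbx3* was at 1.70 CPM in CD34- library 3 and between 7.86 and 12.8 CPM in the other libraries.

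Genes for proteins that maintain Hox states were examined next. Of 19 Polycomb genes, which keep Hox genes silent, 0 were called without the block, against 0.121% of all genes. With the block 1 was called, where 8.57% of all genes were. This was *Phc2*, higher in CD34- CAFs by 0.64 ± 0.17 on the log2 scale (adjusted p = 0.0430 in limma-voom). *Jarid2*, which recruits the Polycomb complex, was the 1 of 19 called between tumors (adjusted p = 0.0176 in limma-voom), where 3.47% of all genes were. Its level was 37.9 and 46.0 CPM in tumor 1, 15.4 and 15.9 CPM in tumor 2 and 22.0 and 27.2 CPM in tumor 3. *Ezh2*, the catalytic subunit of the complex, lay between 11.8 and 21.8 CPM (adjusted p = 0.358 between tumors in limma-voom). None of 12 genes for trithorax proteins and H3K27 demethylases was called in limma-voom. Between the fractions 0 had an unadjusted p under 0.05 without the block and 2 with it, against 14.3% and 23.3% of all genes. *Kmt2a*, which keeps Hox genes active, was at 74.9 to 127 CPM.

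Genes of retinoic acid, which induces Hox genes in the embryo, passed the test between the fractions with the block. Of 14 tested genes, 0 were called without it, with 7 at an unadjusted p under 0.05, against 14.3% of all genes. With it 7 were called, where 8.57% of all genes were. Higher in CD34- CAFs on the log2 scale were *Cyp26b1*, which degrades retinoic acid (1.97 ± 0.41), *Stra6*, which takes up retinol (1.63 ± 0.38), the synthetic enzyme *Aldh1a2* (1.05 ± 0.18), the binding protein *Crabp1* (0.96 ± 0.22), and the receptor gene *Rxrb* (0.73 ± 0.17). *Aldh1a3*, another synthetic enzyme, was lower, at -2.41 ± 0.19 (SE). In limma-voom with the block, the adjusted p of the 7 genes ranged from 0.000237 to 0.0303. The 7 genes thus held both synthesis and degradation. Between tumors 3 of 14 were called, *Aldh1a1*, *Aldh1a2* and *Aldh1a3*, where 3.47% of all genes were. *Cdx1* was at or under 0.0443 CPM, and *Cdx2* and *Cdx4* had no count.

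Among 28 other factors of limb, trunk and mesenchyme, 21 were tested between the fractions and 0 were called without the block. At an unadjusted p under 0.05 there were 6, against 14.3% of all genes. With the block 4 were higher in CD34- CAFs (*Msx1* by 1.49 ± 0.31, *Tbx2* by 1.02 ± 0.25, *Tbx3* by 0.81 ± 0.20 and *Prrx2* by 0.58 ± 0.14 on the log2 scale, SE) and 2 were lower (*Tbx5*, at -1.94 ± 0.44, and *Prrx1*, at -0.54 ± 0.12), and limma-voom gave adjusted p from 0.0178 to 0.0388. Of all genes, 8.57% were called with the block. Between tumors 4 of 22 were called, *Prrx1*, *Shox2*, *Six2* and *Tbx3*, where 3.47% of all genes were. *Six2*, a gene of kidney progenitors, was at 6.34 and 7.05 CPM in tumor 1 and at or under 0.269 CPM in the other libraries (adjusted p = 0.0422 in limma-voom). *Tbx4*, a hindlimb gene, was at 1.76 and 0.742 CPM in tumor 1, 0 and 0.0234 CPM in tumor 2 and 0.385 and 0.952 CPM in tumor 3 (adjusted p = 0.181 in limma-voom). *Pitx1*, of the same list, had no count in tumors 1 and 2. It was at 0.0550 and 0.917 CPM in the CD34- and CD34+ libraries of tumor 3.

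The cell content of the libraries was checked with marker lists. The 8 fibroblast markers summed to between 68252 and 94370 CPM, most of it from 3 collagen genes, and *Pdgfra*, the gene of the reporter, lay between 302 and 505 CPM. *Dcn* (adjusted p = 0.00885) and *Lum* (0.0420) were called between tumors, and with the block 2 of the 8 were called higher and 2 lower in CD34- CAFs. Of all genes, limma-voom called 3.47% between tumors and 8.57% between the fractions with the block. The 8 epithelial markers summed to 175 and 147 CPM in the CD34- and CD34+ libraries of tumor 1, 144 and 92.3 CPM in tumor 2 and 53.2 and 14.3 CPM in tumor 3, and 2 of them, *Epcam* and *Krt8*, were called between tumors. The 8 pericyte and smooth muscle markers summed to 221 to 248 CPM in CD34- and 89.0 to 196 CPM in CD34+ libraries, but moved both ways, with 4 called higher and 2 (*Abcc9* and *Kcnj8*) lower in CD34- CAFs with the block. The 6 endothelial markers summed to 10.4 to 30.5 CPM in CD34- and 55.2 to 122 CPM in CD34+ libraries. Of this, *Tek* alone held 5.44 to 13.4 and 48.8 to 116 CPM. The means of *Kdr* (3.51 and 7.17 CPM) and *Pecam1* (3.15 and 5.53 CPM) were also higher in CD34+ libraries. Those of *Cdh5* (1.97 and 0.751 CPM), *Emcn* (0.774 and 0.186 CPM) and *Cldn5* (0.362 and 0.0530 CPM) were higher in CD34- libraries. The 8 immune, 5 Schwann cell and 5 skeletal muscle markers summed to at most 20.2, 22.8 and 6.71 CPM, and of the 4 adipocyte markers, which reached at most 0.882 CPM, 2 had no count. The part of these cells in the Hox levels was not tested. In bulk libraries, fewer cells that express a gene and less RNA of it per cell cannot be told apart.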

How the data were processed

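Bulk RNA-seq was carried out on CD34- and CD34+ GFP-positive CAFs from 3 raGFP-Wnt1 tumors. The authors aligned reads to GRCm38/mm10 and counted them per gene (Rsubread in the methods, featureCounts in the processing notes), and raw counts per gene were deposited, without normalization. The deposited gene length was used for RPKM. Strand and multi-mapping settings are not given in the sources used here.

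Samples were grouped by title, and the tumor number in the title pairs the fractions. Deviations from the group means correlated at 0.373, 0.350 and 0.219 between the fractions of tumors 1, 2 and 3 and between -0.214 and -0.0921 otherwise. Replicates differed beyond sampling noise (chi-square per gene 111 or more). P-values between the fractions rest on 3 tumors and do not reach beyond them. Without the block they set the difference against the spread between libraries of a fraction. With the block they set it against the scatter of the paired difference over the tumors. Between tumors, the 2 fractions of a tumor are its only libraries. Those p-values set tumor differences against the scatter within tumors, and no tumor was replicated.

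Following the steps named in the study's methods, low counts were removed by filterByExpr (minimum count 10) and TMM factors computed (edgeR 4.0.16). All genes were tested by voom and limma 3.58.1 (two-sided, Benjamini-Hochberg adjusted p under 0.05) in R 4.3.3. The study's methods name no term for the tumor, and the fit without it called 18 of 14855 genes between the fractions. The paper reports more genes than that as higher in CD34- CAFs, so its gene list was not reproduced. The tumor block, edgeR quasi-likelihood, DESeq2 1.42.0, other normalizations, filters and weights, and the removal of each library or tumor were alternatives. Between tumors, an F-test of the tumor terms was used with CD34 status as a term. The scripts were tested on simulated data. Hox genes called in a fit and the 3 highest of each cluster are given in every library. *Rxrb*, *Tbx4*, *Pitx1*, *Skap2*, *Mtx2*, the Evx and Cdx genes, the markers and the list genes called between tumors alone were named after their values were seen. Members and lists were chosen with earlier results of these data known. Some genes are not reported here.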

Additional observations from a re-analysis of the deposited data

How the results depend on the processing

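Between the fractions, 0 Hox genes were called by limma-voom, edgeR and DESeq2, each with and without the tumor as a replicate block. The count was also 0 with DESeq2 size factors, library size alone, no low-count filter, a minimum count of 30 and sample quality weights. It stayed 0 with the tumor as a random effect, an adjusted p of 0.10, and without each library or tumor. Without single libraries, at most 0.221% of all genes were called. No gene of any kind was called without CD34- library 3 or CD34+ library 2, nor, without the block, when tumor 2 or tumor 3 was left out. In those fits the Hox count of 0 was fixed in advance. Between tumors, 6 Hox genes were called, against 13 by the DESeq2 likelihood ratio test, 10 without a low-count filter and 0 without a term for CD34 status (where 0 of 15496 genes were called), and 3 to 24 when single libraries were left out. The cause was not tested.

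Of the lists, the replicate block changed the calls between the fractions from 0 to 1 for Polycomb (2 by DESeq2 with the block), from 0 to 7 for retinoic acid (5 by DESeq2, 2 by edgeR and 8 by DESeq2 with the block) and from 0 to 6 for other positional factors (6 by DESeq2 with the block). Of all genes, DESeq2 called 4.54% without and 11.6% with the block, and edgeR 0.0606% and 3.87%. Between tumors, DESeq2 called 2 cofactors, 3 Polycomb, 5 retinoic acid, 1 neighbouring and 8 positional genes, and edgeR called 0 Polycomb and 0 positional genes. Of all genes, DESeq2 called 10.1% and edgeR 1.26% between tumors. These list counts between tumors, the count over genes tested between the fractions and the other minimum counts for the most posterior gene were chosen after seeing the data.

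The log2 fold changes (CD34- minus CD34+) of genes that did not pass the test changed sign in places. With the replicate block in limma-voom they were -0.0731 for *Hoxa5*, -0.62 for *Hoxa10*, 0.42 for *Hoxb2*, 0.16 for *Hoxb3*, 0.52 for *Hoxc6*, 0.28 for *Hoxc8* and 0.28 for *Hoxd8*. In edgeR they were -0.59 for *Hoxa10*, 0.43 for *Hoxb2*, 0.11 for *Hoxb3*, 0.56 for *Hoxc6*, 0.27 for *Hoxc8* and 0.22 for *Hoxd8*. In DESeq2 they were -0.60 for *Hoxa10*, 0.42 for *Hoxb2*, 0.10 for *Hoxb3*, 0.55 for *Hoxc6*, 0.26 for *Hoxc8* and 0.21 for *Hoxd8*. In edgeR with the block they were -1.02 for *Hoxa10*, 0.25 for *Hoxb2*, 0.13 for *Hoxb3*, 0.26 for *Hoxc6*, 0.21 for *Hoxc8* and 0.18 for *Hoxd8*. In DESeq2 with the block they were -1.05 for *Hoxa10*, 0.24 for *Hoxb2*, 0.12 for *Hoxb3*, 0.24 for *Hoxc6*, 0.20 for *Hoxc8*, -0.017 for *Hoxc10* and 0.17 for *Hoxd8*. With sample quality weights they were -0.89 for *Hoxa10*, -1.14 for *Hoxc10*, 0.23 for *Hoxd8* and 0.43 for *Hoxd9*. Without a low-count filter the value was 0.00282 for *Hoxd8*. With the tumor as a random effect the value was 0.0526 for *Hoxd8*. Without single libraries or tumors they ranged from -0.57 to 1.99 for *Hoxa5*, -3.07 to 3.96 for *Hoxa10*, -1.59 to 0.82 for *Hoxb2*, -1.43 to 0.59 for *Hoxb3*, -2.48 to 0.24 for *Hoxb7*, -0.61 to 0.81 for *Hoxc6*, -1.94 to 0.79 for *Hoxc8*, -2.23 to 3.98 for *Hoxc10*, -0.36 to 0.38 for *Hoxd8* and -2.61 to 1.55 for *Hoxd9*. The differences between tumors 2 and 1 of the 6 called genes kept their sign under the 13 alternatives run, in which the call was lost in 1 for *Hoxa10* and *Hoxc10*, 2 for *Hoxc8*, 4 for *Hoxc6* and 7 for *Hoxb2* and *Hoxb3*.

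In TPM, the summed levels in CD34- and CD34+ CAFs were 20.3 and 20.6 for Hoxa, 24 and 21.3 for Hoxb, 113 and 87.4 for Hoxc, 25.9 and 24.3 for Hoxd. Depth limits the genes near 0: a library without a count allows up to 0.185 CPM, on unscaled totals, in CD34+ library 1.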
